A study of Mus musculus with 33 samples.

Results

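The SLC22 organic ion transporters of the mouse kidney were followed as a set of 9 genes: Slc22a6, Slc22a8, Slc22a7, Slc22a19, Slc22a27, Slc22a12, Slc22a2, Slc22a4 and Slc22a5. They were chosen by name, with earlier results of these data known. They make up 9 of the 17097 genes that the arrays name through a probe set with a single gene symbol. Where a gene had several probe sets, the set with the highest mean over all arrays represented it. The 9 genes had 15 such probe sets, with several for 5 genes and 1 for 4. Another 10 SLC22 genes could be named and serve as a comparison.

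Kidneys came from 33 mice of the lupus-prone cross NZB X NZW F1 (BWF1), with 1 Affymetrix array for each kidney. In 30 mice, females by the study's methods, an adenovirus that carries a mouse interferon-alpha gene (Adv-IFNα) had been given by vein at 9 weeks of age, or 8 by another passage of the same source. From these mice 5 kidneys were taken at each of weeks 1, 2, 3, 5, 7 and 9 after the vector. The other 3 mice were untreated; the labels give no age for them, although the controls were described as matched in age. No empty vector was given, so an effect of the virus and one of the interferon cannot be told apart, and the cells that made the interferon are not stated. All weeks were set against the same 3 untreated kidneys, so the comparisons with untreated kidneys are not independent of each other. All values are log2 intensities, where a difference of 1 is a doubling, and the levels of different genes cannot be ranked against each other because each probe set responds in its own way.

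The proximal tubule clears drugs, toxins and metabolic waste from blood by taking them up through carriers of the basolateral membrane and passing them to the urine through carriers of the apical membrane. Slc22a6 (OAT1) and Slc22a8 (OAT3) are its main basolateral uptake carriers for organic anions, which they exchange for alpha-ketoglutarate. Slc22a12 (URAT1) takes urate back from the urine, Slc22a2 (OCT2) takes up organic cations from blood, and Slc22a5 (OCTN2) recovers filtered carnitine.

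The promoters of Slc22a6 and Slc22a8 are shown because these neighbouring genes encode the main basolateral anion carriers. RefSeq (GRCm38.p6) gave a window from 250 bases before to 50 bases after a transcript start for 8 of the 9 genes, all but Slc22a7. The Slc22a6 window lies at chr19:8617746-8618045 and the Slc22a8 window at chr19:8592932-8593231, both on the + strand. The window of Slc22a27, which had the lowest change of the set, lies at chr19:7965978-7966277 on the - strand and is given beside them. The capital marks the first base of the transcript.
Slc22a6 promoter: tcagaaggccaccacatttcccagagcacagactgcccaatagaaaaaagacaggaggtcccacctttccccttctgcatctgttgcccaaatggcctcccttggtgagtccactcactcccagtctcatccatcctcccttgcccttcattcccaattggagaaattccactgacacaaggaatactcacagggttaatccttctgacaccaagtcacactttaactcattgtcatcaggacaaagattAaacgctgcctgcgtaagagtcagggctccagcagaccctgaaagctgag
Slc22a8 promoter: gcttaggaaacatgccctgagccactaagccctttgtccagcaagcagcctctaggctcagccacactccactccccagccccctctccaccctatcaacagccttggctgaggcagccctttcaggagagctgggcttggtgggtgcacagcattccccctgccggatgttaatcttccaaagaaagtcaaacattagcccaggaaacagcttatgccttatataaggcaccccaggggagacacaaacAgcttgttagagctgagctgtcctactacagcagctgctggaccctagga
Slc22a27 promoter: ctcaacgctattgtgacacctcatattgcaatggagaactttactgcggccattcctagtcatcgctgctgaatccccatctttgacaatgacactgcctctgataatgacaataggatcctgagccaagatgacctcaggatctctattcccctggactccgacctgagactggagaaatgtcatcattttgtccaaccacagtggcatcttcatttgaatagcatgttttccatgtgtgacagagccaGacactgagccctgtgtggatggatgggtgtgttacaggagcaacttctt
On both strands, the HNF4-type letters CAAAGTCCA stood in 0 of the 8 windows, beside 0.475% of all 32851 promoter windows of this length, and TATAAA in 0 of the 8, beside 13.6% of all windows. These searches describe exact letters only. Variants of these letters, and other transcript starts of these genes, were not searched.

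Array medians ranged between 3.97 and 4.09, and correlations between arrays across probe sets between 0.965 and 0.994. The lowest value of any main probe set of the 9 genes was 5.64, for Slc22a4 at week 7, above the highest value of 4.14 in 23 control probe sets for nonspecific binding. The beta-actin 3′/5′ ratio, a sign of RNA integrity, was 1.95 ± 0.11 (SD, n = 30) in treated kidneys and 1.57 ± 0.16 (SD, n = 3) in untreated kidneys on the log2 scale. These differ by 0.38 (p = 3.67e-04, exact permutation test, two-sided), with 29 of 30 treated arrays above every untreated one. Its weekly means lay between 1.88 at week 5 and 2.02 at week 9.

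During the first 5 weeks none of the 9 transporters passed the test against untreated kidneys. At weeks 1, 2, 3 and 5, 0 fell and 0 rose (limma with Benjamini-Hochberg adjustment over 45037 probe sets, adjusted p below 0.05 whatever the fold). An unadjusted p below 0.05 was reached by 0, 0, 1 and 0 of them. Among all probe sets tested, week 1 had 0.426% falling and 1.00% rising, week 2 had 0.449% falling and 0.877% rising, week 3 had 0.302% falling and 1.07% rising, and week 5 had 1.11% falling and 1.85% rising. The median change of the set was 0.09, 0.10, 0.20 and 0.03 on the log2 scale in these weeks. The lowest adjusted p was 0.461, 0.563, 0.268 and 0.537.

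At weeks 7 and 9 most of the transporters were lower than in untreated kidneys. At week 7, 6 of 9 fell against untreated kidneys (Slc22a8, Slc22a7, Slc22a19, Slc22a27, Slc22a12 and Slc22a4), beside 5.82% of all probe sets and 6.83% of all genes. At week 9, 5 of 9 fell (the same genes without Slc22a8), beside 7.53% of all probe sets and 7.57% of all genes. None rose at either week. The median change of the 9 genes was -1.20 at week 7 and -0.96 at week 9, against medians over all 17097 genes of 0.03 and -0.03. Between weeks 9 and 7 the changes ranged between 0.04 for Slc22a7 and 0.38 for Slc22a27. Here 0 of 9 passed (lowest adjusted p = 0.434, and 0 with an unadjusted p below 0.05), beside rises in 0.0111% and falls in 0.0577% of all probe sets. In bulk kidney RNA, fewer tubule cells and less RNA per cell cannot be told apart.

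**Figure D1:**
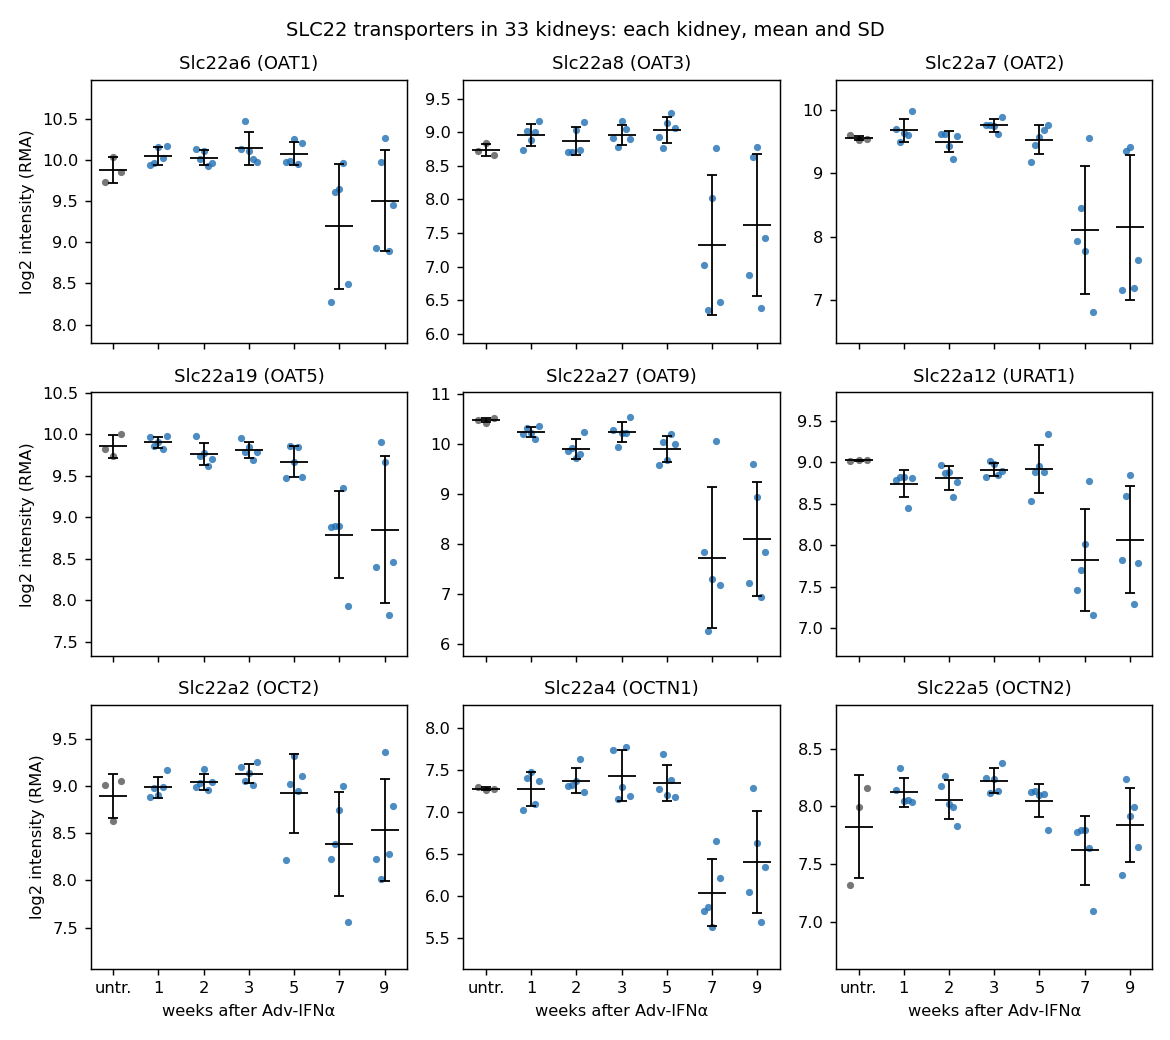
Log2 intensity (vertical axis, a separate scale in each panel) of the 9 transporters in untreated kidneys (grey, n = 3) and in kidneys 1 to 9 weeks after Adv-IFNα (blue, n = 5 per week). Points are kidneys, the long bar is the mean and the whiskers are the SD. Kidneys of weeks 1 to 5 lie near the untreated ones and those of weeks 7 and 9 spread widely, as for Slc22a27 with kidneys from 6.25 to 10.04 at week 7.

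Of the basolateral pair of organic anion carriers, Slc22a8 fell at week 7 and Slc22a6 passed at neither late week. Slc22a8 (OAT3) stood at 7.02, 6.36, 8.03, 8.77 and 6.47 at week 7 and at 6.87, 8.63, 8.78, 6.38 and 7.43 at week 9, against 8.72, 8.84 and 8.66 in untreated kidneys. At each of these weeks 4 of 5 kidneys lay below every untreated one and the other kidney lay within the untreated range. Slc22a8 fell by 1.41 at week 7 (SE 0.40, adjusted p = 0.0126). At week 9 it was at -1.12 (SE 0.40, adjusted p = 0.0537), which did not pass. It passed at week 9 when dim probe sets were left out (adjusted p = 0.0370) and when its probe sets were averaged (-1.35, adjusted p = 0.0286), and 6 of 9 then fell. The second, dimmer Slc22a8 probe set was lower at both weeks too (adjusted p = 7.95e-04 at week 7 and 0.0213 at week 9), but 3 kidneys of week 7 and 2 of week 9 lay below the highest nonspecific control value of 4.14, so that the size of its change was not measured.

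Slc22a6 (OAT1), the neighbour of Slc22a8 on chromosome 19, stood at 8.27, 9.61, 9.64, 9.96 and 8.49 at week 7 and at 8.93, 9.97, 10.27, 8.89 and 9.45 at week 9, against 9.73, 10.04 and 9.85 in untreated kidneys. Low kidneys and kidneys at the untreated level stood side by side in both late weeks. Its change was -0.68 at week 7 (95% CI -1.23 to -0.13, adjusted p = 0.0863) and -0.37 at week 9 (95% CI -0.92 to 0.18, adjusted p = 0.390), and neither passed. The second Slc22a6 probe set gave -1.0 (adjusted p = 0.0786) at week 7 and -0.49 (adjusted p = 0.433) at week 9.

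Of the other anion carriers, Slc22a7 (OAT2), a carrier of liver and kidney, stood at 7.93, 8.46, 7.78, 9.56 and 6.82 at week 7 and at 7.17, 9.36, 9.42, 7.19 and 7.63 at week 9, against 9.60, 9.53 and 9.54 in untreated kidneys. The untreated kidneys lay close together, and 4 of 5 kidneys at week 7 and 5 of 5 at week 9 lay below them all. Slc22a7 fell by 1.45 at week 7 (SE 0.40, adjusted p = 0.0120) and by 1.40 at week 9 (SE 0.40, adjusted p = 0.0179). The mean of 6 liver markers, which include Alb and Ttr, also moved: it ranged from 4.42 to 5.76 at week 7 and from 4.92 to 5.53 at week 9, against 6.06 to 6.14 in untreated kidneys, and 3 of the 6 fell at week 7 and 1 at week 9. At weeks 1, 2, 3 and 5 none of the 6 liver markers passed. Their mean then ranged from 5.77 to 7.25, from 5.57 to 6.16, from 5.38 to 5.88 and from 5.49 to 7.35. The part of these transcripts in the Slc22a7 result was not tested.

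Slc22a19 (OAT5), an anion carrier of the apical membrane, stood at 8.89, 8.89, 8.89, 9.36 and 7.93 at week 7 and at 8.40, 9.91, 9.67, 7.83 and 8.46 at week 9, against 9.83, 9.74 and 10.01 in untreated kidneys. At week 7 the groups did not overlap, while at week 9 one kidney lay within the untreated range. Slc22a19 fell by 1.07 at week 7 (SE 0.28, adjusted p = 0.00808) and by 1.00 at week 9 (SE 0.28, adjusted p = 0.0153).

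Slc22a27 (OAT9), a further anion carrier, had the lowest change of the 9 genes at both late weeks. It stood at 7.84, 6.25, 7.30, 10.04 and 7.17 at week 7 and at 7.20, 9.59, 8.93, 6.93 and 7.83 at week 9, against 10.48, 10.42 and 10.51 in untreated kidneys. All 10 late kidneys lay below all untreated kidneys. Slc22a27 fell by 2.75 at week 7 (SE 0.48, adjusted p = 1.57e-04), which is 6.71-fold, and by 2.37 at week 9 (SE 0.48, adjusted p = 0.00112), which is 5.17-fold. A second probe set, which by its type may also bind related transcripts, changed by -2.64 at week 7 and by -2.07 at week 9. The third lay at the level of the nonspecific controls in untreated kidneys, and no change is given for it. Chosen after its values were seen, the earlier course of Slc22a27 is given as well: its change was -0.24, -0.57, -0.24 and -0.58 at weeks 1, 2, 3 and 5, with 5, 5, 4 and 5 of 5 treated kidneys below every untreated one, and none of these changes passed (adjusted p = 0.878, 0.626, 0.879 and 0.585). With only the week concerned and untreated kidneys in the limma fit, the adjusted p was 0.479, 0.0933, 0.504 and 0.0985, and none passed. These early changes were larger once the beta-actin ratio entered the model, at -0.91, -1.22, -0.84 and -1.14, and none of them passed then (adjusted p = 0.697, 0.544, 0.655 and 0.410). The second probe set changed by 0.05, -0.13, 0.13 and -0.18 in these weeks, and none of these passed. It had 0, 0, 0 and 2 of 5 treated kidneys below every untreated one. The share of all probe sets with treated kidneys below every untreated one was not counted.

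Slc22a12 (URAT1), the apical urate exchanger, stood at 7.46, 7.70, 8.01, 8.78 and 7.16 at week 7 and at 7.82, 8.60, 8.85, 7.28 and 7.79 at week 9, against 9.02, 9.03 and 9.03 in untreated kidneys. The 3 untreated kidneys lay within a narrow range, and most treated kidneys of every week lay below them: 5, 5, 5 and 4 of 5 at weeks 1, 2, 3 and 5, when none of its changes passed, and all 10 at weeks 7 and 9. Slc22a12 fell by 1.20 at week 7 (SE 0.26, adjusted p = 0.00126) and by 0.96 at week 9 (SE 0.26, adjusted p = 0.0111). Its second probe set fell by 1.15 and 0.83 (adjusted p = 0.00338 and 0.0398). At weeks 1, 2, 3 and 5 this second probe set changed by -0.12, -0.04, -0.04 and -0.0034, and none of these passed. It then had 4, 3, 4 and 1 of 5 kidneys below every untreated one, and 1, 2, 1 and 2 above them all. How many of all probe sets separate kidneys in this way was not counted.

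Slc22a4 and Slc22a5, neighbouring genes on chromosome 11, encode the carriers OCTN1 and OCTN2, and of these Slc22a4 fell at both late weeks. Slc22a4, a carrier of the dietary antioxidant ergothioneine, stood at 5.83, 5.88, 5.64, 6.65 and 6.22 at week 7 and at 6.06, 7.29, 6.64, 5.70 and 6.35 at week 9, against 7.30, 7.27 and 7.27 in untreated kidneys. The groups did not overlap at week 7, and at week 9 one kidney reached the untreated level. Slc22a4 fell by 1.24 at week 7 (SE 0.23, adjusted p = 2.90e-04) and by 0.87 at week 9 (SE 0.23, adjusted p = 0.00947).

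Slc22a5, the carnitine carrier, stood at 7.77, 7.79, 7.80, 7.64 and 7.09 at week 7 and at 7.41, 8.24, 7.92, 8.0 and 7.65 at week 9, against 7.32, 8.0 and 8.16 in untreated kidneys. The untreated kidneys spanned almost the whole range of the late ones. Its change was -0.21 at week 7 (95% CI -0.55 to 0.14, adjusted p = 0.461) and 0.02 at week 9 (95% CI -0.33 to 0.36, adjusted p = 0.963), and the second probe set gave -0.12 and -0.13 (adjusted p = 0.726 and 0.697).

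Slc22a2 (OCT2), the cation carrier, stood at 8.22, 8.38, 8.75, 9.00 and 7.56 at week 7 and at 8.23, 8.01, 9.36, 8.28 and 8.79 at week 9, against 9.01, 8.63 and 9.05 in untreated kidneys. At each late week 3 of 5 kidneys lay below the untreated range. Its change was -0.51 at week 7 (95% CI -1.0 to -0.02, adjusted p = 0.159) and -0.36 at week 9 (95% CI -0.86 to 0.13, adjusted p = 0.339), and neither passed. Its change at week 7 ranged from -0.67 without week 7 replicate 4 to -0.31 without week 7 replicate 5.

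**Figure D2:**
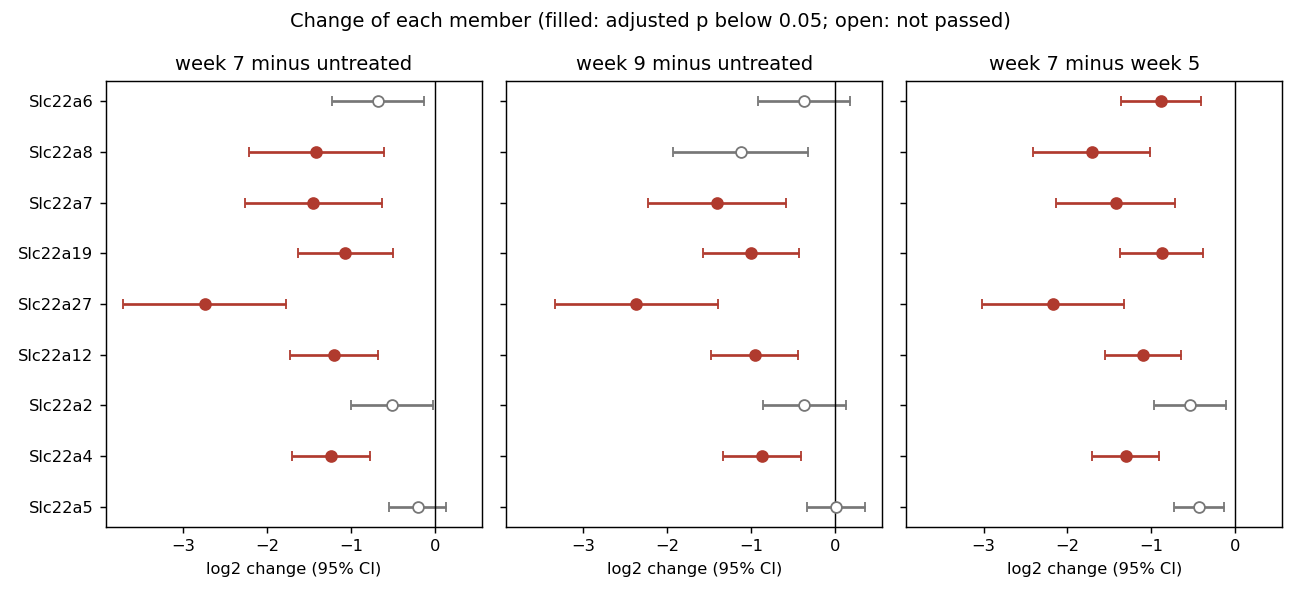
Log2 change of each transporter (horizontal axis, with its 95% confidence interval) at week 7 and week 9 against untreated kidneys and at week 7 against week 5. Filled points have an adjusted p below 0.05 and open points do not. Slc22a27 lies farthest to the left in each panel, at -2.75, -2.37 and -2.17.

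These counts changed with the samples in the fit and when single kidneys were left out. With only week 7 and untreated kidneys in the fit, 4 of 9 fell, with Slc22a8 (adjusted p = 0.0962) and Slc22a7 (adjusted p = 0.0800) no longer past the threshold, and with only week 9 and untreated kidneys 1 of 9 fell, Slc22a27 (adjusted p = 0.0217). With the beta-actin ratio added to the model 6 fell at week 7 and 3 at week 9. Slc22a7 (-1.72, adjusted p = 0.0823) and Slc22a19 (-1.31, adjusted p = 0.0533) no longer passed at week 9, although both changes were larger than without the ratio. At week 9, 3 fell without untreated replicate 3 or without week 9 replicate 4, where Slc22a7 and Slc22a19 were lost each time, and Slc22a7 was also lost without untreated replicate 1 or week 9 replicate 1. Slc22a8 passed at week 9 without replicate 2 (-1.38, adjusted p = 0.0148) or 3 (-1.41, adjusted p = 0.0119) of that week. At week 7, 8 fell without replicate 4 of that week, with Slc22a6 at -0.87 (adjusted p = 0.0169) and Slc22a2 at -0.67 (adjusted p = 0.0484).

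The treated weeks were also compared with each other. These differences do not use the untreated means, although all 33 arrays share the estimate of the spread. Between weeks 7 and 5, 7 of 9 transporters fell, beside 3.77% of all probe sets and 5.53% of all genes. The changes were -2.17 for Slc22a27 (SE 0.41, adjusted p = 0.00104), -1.71 for Slc22a8 (SE 0.34, adjusted p = 0.00162), -1.42 for Slc22a7 (SE 0.35, adjusted p = 0.00824) and -1.31 for Slc22a4 (SE 0.20, adjusted p = 1.64e-04). Slc22a12 changed by -1.10, Slc22a6 by -0.88 and Slc22a19 by -0.88 (adjusted p = 0.00168, 0.0147 and 0.0200). Slc22a6, which did not pass against untreated kidneys, thus passed against week 5, where its kidneys lay between 9.95 and 10.25. Slc22a2 at -0.54 (adjusted p = 0.112) and Slc22a5 at -0.43 (adjusted p = 0.0646) did not pass. Slc22a5 passed with array weights (adjusted p = 0.0383), with the replicate block (adjusted p = 0.0430), without dim probe sets (adjusted p = 0.0305) and with averaged probe sets (adjusted p = 0.0292), which made the count 8. With only weeks 7 and 5 in the fit the count was 6, with Slc22a6 lost (adjusted p = 0.0946) and Slc22a27 at an adjusted p of 0.0319. Without week 7 replicate 5 the count was 4, with Slc22a6, Slc22a7 and Slc22a19 lost. Slc22a6 was also lost without week 7 replicate 1 and Slc22a19 without week 5 replicate 2. Slc22a2 passed without week 5 replicate 1 or week 7 replicate 4.

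Between weeks 9 and 1, 6 of 9 fell, beside 4.64% of all probe sets and 6.11% of all genes. Slc22a27 changed by -2.13 (SE 0.41, adjusted p = 9.07e-04), Slc22a7 by -1.53 (SE 0.35, adjusted p = 0.00402) and Slc22a8 by -1.35 (SE 0.34, adjusted p = 0.00957). Slc22a19 changed by -1.05, Slc22a4 by -0.87 and Slc22a12 by -0.67 (adjusted p = 0.00446, 0.00379 and 0.0498). The call of Slc22a12 was lost when any of 7 single kidneys was left out. In separate fits of all kidneys it was also lost with the replicate block (adjusted p = 0.0540) and with robust moderation with a trend (adjusted p = 0.0577). The second probe set of Slc22a12 did not pass (-0.70, adjusted p = 0.0565). With only weeks 9 and 1 in the fit the count was 4, with Slc22a19 (adjusted p = 0.0620) and Slc22a12 (adjusted p = 0.117) lost. It was also 4 without week 9 replicate 4, which also ended the call of Slc22a8, and 8 without week 9 replicate 3, which added Slc22a6 and Slc22a2.

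Neighbouring or closely related genes are set side by side without a test, since the pairs were chosen after their values were seen. Between weeks 7 and 5 the change of Slc22a8 was lower than that of Slc22a6 by 0.83 and the change of Slc22a4 lower than that of Slc22a5 by 0.88, and Slc22a27 was lower than Slc22a19 by 1.29. Of the 5 genes on chromosome 19 (Slc22a6, Slc22a8, Slc22a12, Slc22a19 and Slc22a27), 4 fell at week 7 against untreated kidneys. Of the pairs on chromosomes 17 (Slc22a2 and Slc22a7) and 11 (Slc22a4 and Slc22a5), 1 gene each fell.

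The late kidneys were not alike, and most of the transporters ranked them in a similar order. Week 7 replicate 4 was the highest of its 5 kidneys in 8 of 9 genes, and week 9 replicates 2 and 3 were each among the top 2 in 8 of 9. Week 7 replicate 5 was the lowest in 5 genes and week 9 replicate 4 in 6. There were exceptions: week 9 replicate 2 was the lowest of its week for Slc22a2 (8.01), and week 7 replicate 5 came next after replicate 4 for Slc22a4 (6.22). How many of all probe sets order the late kidneys in this way was not counted. The tubular injury marker Lcn2, which encodes lipocalin-2, ran the other way: it stood at 9.55, 9.93, 8.53, 4.30 and 9.21 at week 7 and at 8.84, 4.82, 5.90, 9.94 and 8.55 at week 9, against 4.37, 3.78 and 3.75 in untreated kidneys. The 3 late kidneys with the lowest Lcn2 were week 7 replicate 4 and week 9 replicates 2 and 3.

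Havcr1, the injury marker KIM-1, stood at 10.06, 10.59, 9.45, 7.54 and 10.83 at week 7 and at 10.53, 8.46, 8.43, 9.94 and 10.29 at week 9, against 6.64 to 7.33 in untreated kidneys, and was lowest in the same 3 late kidneys. Over the whole injury list, 8 of 8 measured genes rose at week 7 and 7 of 8 at week 9, and the list mean ranged from 6.22 to 8.55 at week 7 and from 6.41 to 8.58 at week 9, against 5.25 to 5.64 in untreated kidneys. Of 12 leukocyte and macrophage markers 6 rose at week 7 and 7 at week 9. Their list mean ranged from 4.46 to 5.16 at week 7 and from 4.78 to 5.77 at week 9, against 3.66 to 3.88 in untreated kidneys. Ptprc, the pan-leukocyte marker CD45, stood between 7.57 and 8.51 at week 7 and between 7.60 and 8.63 at week 9, against 5.55 to 6.05 in untreated kidneys. It was already at 7.01 to 8.48 at week 5, when no transporter had passed. At that week 2 of the 8 injury genes had risen too, and the injury list mean ranged from 5.82 to 6.15. The part of injured tubules or infiltrating cells in the transporter results was not tested.

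**Figure D3:**
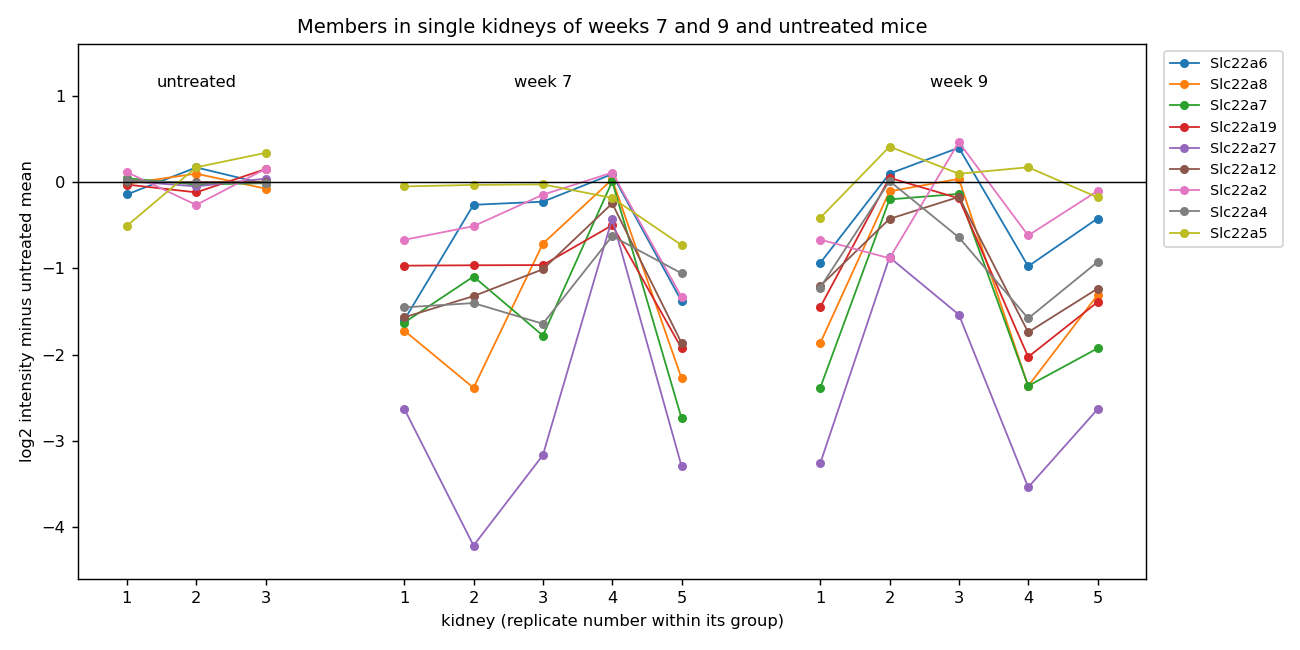
Log2 intensity of each transporter minus its untreated mean (vertical axis) in single kidneys of the untreated, week 7 and week 9 groups (horizontal axis, replicate number, with lines only joining points of a gene). Week 7 replicate 4 and week 9 replicates 2 and 3 lie nearest to 0 for most genes, and Slc22a27 lies lowest in most late kidneys.

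General markers of the proximal tubule, the cells that carry these transporters, moved as well. Of 11 measured markers 10 fell at week 7, with a median change of -0.71, and 2 fell at week 9, with a median of -0.37. By size these were Slc34a3, a phosphate carrier (-1.58 at week 7 and -1.34 at week 9), Slc5a2, the glucose carrier SGLT2 (-1.05 and -0.95), and at week 7 only Slc7a8 (-1.30) and Slc6a19 (-1.28), carriers of amino acids. The list mean ranged from 8.19 to 9.50 at week 7 and from 8.57 to 9.51 at week 9, against 9.43 to 9.50 in untreated kidneys. Kap, an abundant proximal tubule transcript, named because it was the 1 marker that did not fall at week 7, was at -0.18 (adjusted p = 0.374) and -0.11 (adjusted p = 0.605). Lrp2 and Slc34a1 were not analysed here. A list of 6 markers of the straight segment (S3) of the proximal tubule moved less and in both directions. Of these 6, 2 fell and 1 rose at week 7 (median -0.14), and 1 fell and 1 rose at week 9 (median -0.09). The lists overlap: Slc16a9 and Slc5a8 of this list and Slc5a12 of the proximal tubule list also count among the partner carriers below, and Slc16a9 among the carnitine genes. Their counts are therefore not independent. Markers of later nephron segments, which do not define the proximal tubule, moved too. Of 6 measured for the loop of Henle and distal nephron, 3 fell at week 7 (median -0.56), and 4 fell and 1 rose at week 9 (median -0.69). Pvalb, the calcium-binding parvalbumin, changed by -3.06 at week 7 and by -2.83 at week 9, Calb1, calbindin, by -1.22 and -1.35, and Slc12a3, the thiazide-sensitive salt carrier, by -0.95 and -0.93, while Umod, uromodulin, rose by 0.29 at week 9. The list mean ranged from 8.49 to 9.65 at week 7 and from 8.41 to 9.55 at week 9, against 9.62 to 9.76 in untreated kidneys. Of 6 collecting duct markers 2 fell at each late week. The part of these cells in the transporter results was not tested. Over all genes, 6.83% fell and 13.2% rose at week 7 and 7.57% fell and 9.05% rose at week 9.

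Other SLC22 genes also moved, in both directions. Of 10 measured, 5 fell and 1 rose at week 7 (median -0.37), and 4 fell and 1 rose at week 9 (median -0.38). Slc22a22, which encodes a prostaglandin carrier of mouse kidney, changed by -3.06 at week 7 (adjusted p = 1.74e-04) and by -1.73 at week 9 (adjusted p = 0.0286). Slc22a18 changed by -1.19 and -1.20, Slc22a13, a carrier of nicotinate and urate, by -0.56 and -0.53, and Slc22a17, described as a receptor of lipocalin-2, by -0.52 and -0.45. Slc22a30 changed by -1.71 at week 7 (adjusted p = 0.00347) and was at -1.03 at week 9, which did not pass (adjusted p = 0.0885). Slc22a15 rose by 0.80 at week 7 (adjusted p = 1.80e-04) and by 1.04 at week 9 (adjusted p = 1.05e-05). It had already risen by 0.61 at week 5 (adjusted p = 0.0120), and its difference between weeks 7 and 5 of 0.19 did not pass (adjusted p = 0.424).

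The carriers, pumps and scaffold proteins that work with the SLC22 transporters gave 7 falls and 3 rises among 23 measured genes at week 7 and 6 falls and 2 rises at week 9, with medians of -0.24 and -0.19. Slc13a3, the basolateral dicarboxylate carrier that feeds the anion exchange of Slc22a6 and Slc22a8, changed by -1.19 at week 7 (adjusted p = 0.0116) and by -1.01 at week 9 (adjusted p = 0.0371). Its apical relative Slc13a2 changed by -1.51 and -1.04, Slc16a9, a monocarboxylate carrier family member, by -1.30 and -1.17, and Pdzk1, the scaffold that anchors apical transporters, by -1.21 and -1.03. Abcb1a, the efflux pump P-glycoprotein, rose by 1.41 (adjusted p = 1.06e-05) and by 1.49 (adjusted p = 8.30e-06), and Slco3a1 by 0.71 and 0.60. Abcb1a had already risen by 1.38, 1.53, 1.63 and 1.65 at weeks 1, 2, 3 and 5 (adjusted p = 3.17e-05 at week 1), and its difference between weeks 7 and 5 of -0.25 did not pass (adjusted p = 0.462). The following apical exits, chosen after their values were seen, did not pass: Slc47a1, the cation extruder MATE1, was at -0.19 and -0.25 (adjusted p = 0.420 and 0.261), and Abcc4, an organic anion pump, at 0.35 and 0.47 (adjusted p = 0.204 and 0.0734).

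Genes of carnitine synthesis and use, the pathway that Slc22a5 supplies, gave 7 falls and 0 rises among 15 measured at week 7 (median -0.59) and 3 falls and 1 rise at week 9 (median -0.30). Besides Slc16a9 the falls at week 9 were Shmt1 (-0.81), a serine hydroxymethyltransferase, and Crat (-0.53), carnitine acetyltransferase, while Acadl, a dehydrogenase of long-chain fatty acids, rose by 0.36. Slc22a5 itself was at -0.21 and 0.02. Among 11 measured transcription factors of the proximal tubule 2 fell and 3 rose at week 7, and 1 fell and 1 rose at week 9, with medians of -0.02 and -0.04. Ppara, a regulator of fatty acid oxidation, changed by -0.93 and -0.60, and Nfe2l2, a regulator of the antioxidant response, rose by 0.88 and 0.72. At week 7 alone Esrra changed by -0.51, and Cebpb and Hnf4g rose by 0.54 and 0.52.

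**Figure D4:**
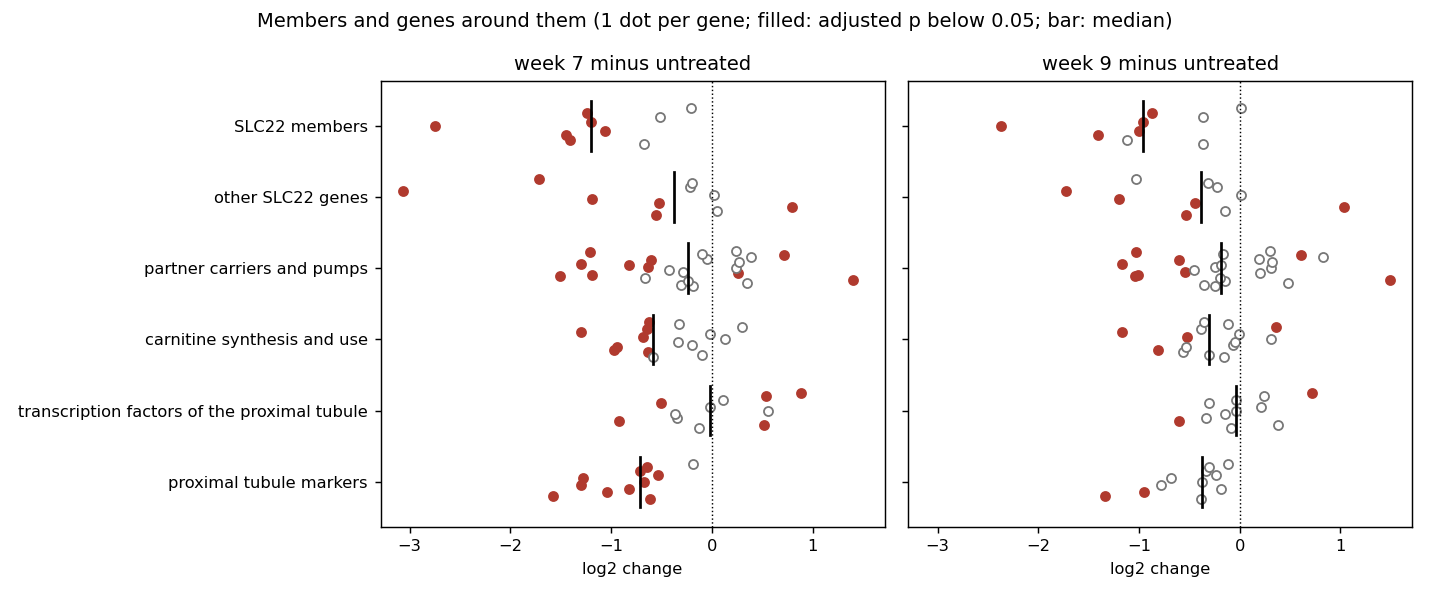
Log2 change (horizontal axis) of each gene of the 9 transporters and of 5 lists around them at week 7 and week 9 against untreated kidneys. Each dot is a gene, filled where its adjusted p is below 0.05, and the bar is the median of a list, which is -1.20 and -0.96 for the transporters and -0.71 and -0.37 for the proximal tubule markers.

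The genes with the most similar profiles over the 33 arrays were found for each transporter by Pearson's r, as a description, since all genes share the same kidneys and the gap between early and late weeks. Slc22a27 was nearest to Dym (r = 0.976), Afm (0.973) and Khk (0.970), the last encoding ketohexokinase of fructose metabolism. Slc22a8 was nearest to Rdh16f2 (0.967), F13b (0.959) and Spp2 (0.954), and Slc22a7 to Slc13a3 (0.967), C8a (0.963) and Mpst (0.956). Slc22a19 was nearest to C8a (0.939), Akr1c14 (0.933) and Slc13a3 (0.931).

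Slc22a12 was nearest to Fam25c (0.940), Dusp15 (0.937) and Rdh16f2 (0.936), Slc22a4 to Aqp4 (0.921), Idh3b (0.917) and Mmut (0.916), and Slc22a6 to Hgd (0.910), Ephx2 (0.909) and Slc13a3 (0.905). The values were lower for Slc22a2, with Aldh2 (0.799), Kmo (0.785) and Amn (0.783), and for Slc22a5, with 4931406C07Rik (0.789), Iyd (0.777) and Aspa (0.776). Among the 9 transporters themselves, the highest r was between Slc22a7 and Slc22a19 (0.954) and the lowest between Slc22a2 and Slc22a5 (0.474).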

How the data were processed

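The deposited values are log2 intensities of kidney RNA after RMA (background correction, quantile normalization, probe summary), made by the authors; the submitters' processing notes name RMA and Partek and give no version. The labels name Trizol for extraction and NuGEN Ovation for labelling. The base of the logarithm was inferred from the range of 0.585 to 13.9. The values were not normalized again. Of 45141 probe sets, 104 controls were left out and 45037 were tested, of which 28898 had 1 symbol, 551 several and 15588 none in the annotation.

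All 33 arrays entered 1 model with 7 group means and 26 residual degrees of freedom (limma 3.58.1, lmFit and eBayes, R 4.3.3), with 2-sided tests and Benjamini-Hochberg adjustment. The spread differed between early and late weeks, and 1 variance for all weeks may make late errors look too small and early errors too large. The number of arrays limits the precision. The model was tested on simulated data that gave each probe set 1 spread for all weeks. That simulation cannot address the difference in spread between early and late weeks. Members and lists were chosen with earlier results of these data known. The 9 members are named with all values. Of a list, up to 4 genes per direction are named by the size of the week 9 change (week 7 where fewer than 4 passed). Named besides these are Lcn2, Havcr1 and Ptprc, the 3 genes nearest each member, and Slc22a30 as the remaining fall of its list at week 7. Alternatives were a fit of only the groups compared, array weights, the beta-actin ratio as covariate, the replicate number as block, a filter at a mean of 5, robust moderation with trend, averaging the probe sets of a gene and leaving out each kidney. Replicate numbers did not pair the kidneys.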

Additional observations from a re-analysis of the deposited data

Results flagged for a closer look

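Of 54 groups of 5 kidneys examined (9 genes at 6 weeks), 3 held a kidney far from the others by Dixon's 95% critical value, which chance alone passes in about 5% of groups. Slc22a12 stood at 8.45 in replicate 4 of week 1, where the 4 remaining kidneys had 8.79 to 8.83. Slc22a5 stood at 7.80 in week 5 replicate 5, against 8.10 to 8.13, and at 7.09 in week 7 replicate 5, against 7.64 to 7.80.

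The effect differed between treated weeks in 7 genes between weeks 7 and 5 and in 6 genes between weeks 9 and 1, by limma with adjusted p below 0.05. For week 7 minus week 5 the differences were -0.88 for Slc22a6, -1.71 for Slc22a8, -1.42 for Slc22a7, -0.88 for Slc22a19, -2.17 for Slc22a27, -1.10 for Slc22a12 and -1.31 for Slc22a4. For week 9 minus week 1 they were -1.35 for Slc22a8, -1.53 for Slc22a7, -1.05 for Slc22a19, -2.13 for Slc22a27, -0.67 for Slc22a12 and -0.87 for Slc22a4.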

How the results depend on the processing

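The number of the 9 transporters that fell at week 9 against untreated kidneys was 5, against 1 with only the 2 groups compared and 3 with the beta-actin ratio added to the model. It was 6 without dim probe sets or with averaged probe sets, with Slc22a8 added. With only the 2 groups compared it was 4 for week 7 against untreated kidneys, against 6 in the model of all arrays, 6 for week 7 minus week 5, against 7, and 4 for week 9 minus week 1, against 6. Without single kidneys it ranged from 3 to 6 at week 9 and from 6 to 8 at week 7, from 4 to 8 for week 7 minus week 5 and from 4 to 8 for week 9 minus week 1. It was 0 throughout for weeks 1, 2, 3 and 5 and for week 9 minus week 7. The cause was not tested. The beta-actin 3′ over middle ratio differed by 0.13 between treated and untreated kidneys (exact two-sided permutation test, p = 0.158).

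With the replicate number as a block 8 fell for week 7 minus week 5, with Slc22a5 added (adjusted p = 0.0430), and 5 for week 9 minus week 1, with Slc22a12 lost (adjusted p = 0.0540). It changed no other call. Deviations of kidneys with the same number had a mean correlation of -0.00329, and 7 of 33 arrays correlated best with their own number.

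Some changes that had not passed turned direction, and none of these passed then. Slc22a5 at week 9 against untreated kidneys was at -0.11 with the beta-actin covariate and at -0.057 with the mean of its probe sets, and between -0.24 and 0.19 without single kidneys. For week 9 minus week 7, leaving out single kidneys gave between -0.28 and 0.41 for Slc22a7, between -0.20 and 0.32 for Slc22a19, between -0.058 and 0.30 for Slc22a2 and between -4.4e-04 and 0.65 for Slc22a8.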
